A study of Mus musculus with 8 samples.

Results

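The CC chemokine ligands described here are 10 genes, Ccl2, Ccl3, Ccl4, Ccl5, Ccl6, Ccl7, Ccl8, Ccl9, Ccl12 and Ccl24, out of 19938 genes measured. They were chosen by symbol in the platform annotation of the Affymetrix mouse Gene ST 1.0 array, and each was represented by 1 probe set that names no other gene. The arrays compared hemophagocytes, macrophages that have engulfed blood cells, with resting splenic macrophages, on 4 arrays each. All mice were male, wild type, of strain C57Bl/6j and 8 weeks old. Hemophagocytes came from mice given 4 intraperitoneal doses on alternate days of 37.5 ug of CpG1826, an oligonucleotide that activates Toll-like receptor 9, with 200 ug of the IL-10 receptor blocking antibody 1B1.3A. Resting macrophages came from mice given 200 uL of PBS on the same schedule. Per the labels, 20 cells of the wanted kind were cut by laser from spleen touch preparations of each mouse and pooled, and the number of mice in a pool is not given there. Macrophages without engulfed cells from treated mice were not analysed here, and the effects of treatment and engulfment cannot be told apart.

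CC chemokines are small secreted proteins that bind G protein-coupled receptors and draw leukocytes along a gradient. They are named for a pair of adjacent cysteines near the start of the mature protein. Macrophages make many of them after Toll-like receptor or interferon signals. Ccl3, Ccl4 and Ccl5 draw T cells and monocytes, Ccl3 and Ccl5 in part through CCR1. Ccl6 and Ccl9 are rodent ligands of CCR1. Ccl2, Ccl7 and Ccl12 draw monocytes through CCR2, mouse Ccl8 acts on CCR8, and Ccl24 draws eosinophils through CCR3. In the RefSeq gene order, 9 of the members lie on mouse chromosome 11, in a run from Ccl2 through Ccl7, Ccl11 and Ccl12 to Ccl8 and in a second run from Ccl5 through Ccl9, Ccl6 and Ccl3 to Ccl4, and Ccl24 lies on chromosome 5 next to Ccl26.

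Of the hemophagocyte arrays, numbers 3 and 5 carried most of the high chemokine values. Hemophagocyte 5 had 5 of the 10 members more than 1 log2 unit above their resting mean (Ccl5, Ccl6, Ccl7, Ccl9 and Ccl12), and hemophagocyte 3 had 3 (Ccl2, Ccl5 and Ccl6). Over all genes the share that far above the resting mean was 0.863% on hemophagocyte 5 and 0.858% on hemophagocyte 3. Hemophagocytes 2 and 6 had 0 members above that mark, beside 0.115% and 0.191% of all genes. Resting arrays had 0 members there as well, beside 0.0401%, 0.0853%, 0.0552% and 0.0201% of all genes on resting macrophages 3, 4, 5 and 6. Hemophagocytes 3 and 5 thus stood apart from the other 6 arrays in general, and each member is given below with and without them.

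**Figure D1:**
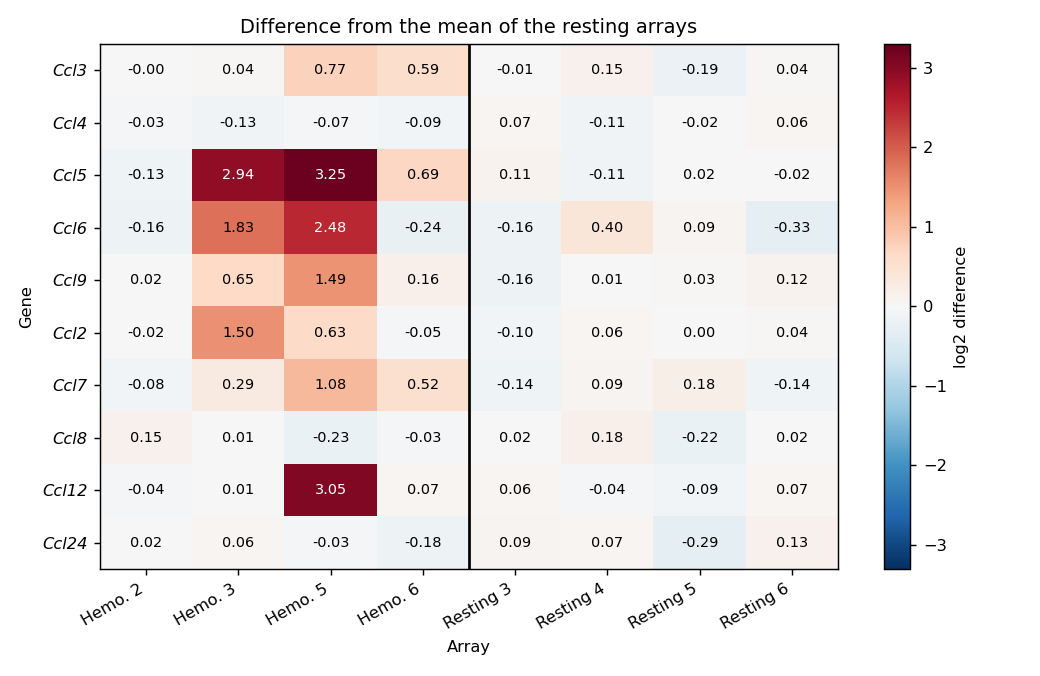
Difference of each CC chemokine ligand (rows) on each array (columns) from the mean of the 4 resting arrays, in log2 units, with hemophagocyte arrays to the left of the black line and resting arrays to the right of it. The strong values lie on hemophagocytes 3 and 5, with Ccl5 at 2.94 and 3.25, while Ccl4, Ccl8 and Ccl24 lie between -0.29 and 0.18 on every array.

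Markers of macrophages and of other cells were read on the same arrays. The 12 macrophage markers averaged 6.17, 6.80, 7.22 and 6.31 (log2) on hemophagocytes 2, 3, 5 and 6, against 6.44 to 6.54 on resting arrays. As a gauge of array background, 1194 olfactory and vomeronasal receptor genes, best known from sensory neurons, had a 95th percentile of 7.42 to 7.72 on hemophagocyte arrays and 7.69 to 7.81 on resting arrays. On hemophagocytes 3 and 5, 3 of the 12 macrophage markers lay above that percentile, and on the other 6 arrays 0 or 1 did. Cd68, found in macrophage lysosomes, had values of 7.21, 9.66, 10.52 and 7.50 on hemophagocytes 2, 3, 5 and 6, against 7.29 to 7.50 on resting arrays. Lyz2, the lysozyme of myeloid cells, had 5.86, 9.95, 9.96 and 6.55 on hemophagocytes 2, 3, 5 and 6, against 8.89, 8.86, 8.71 and 7.45 on resting macrophages 3, 4, 5 and 6. On hemophagocytes 2 and 6 it lay below all its resting values, and on 3 resting arrays above the percentile (change -0.40, limma adjusted p = 0.93). Adgre1, the F4/80 antigen, and Csf1r, the receptor for macrophage colony-stimulating factor, lay below that percentile on all 8 arrays. Adgre1 nonetheless stood at 5.53, 5.76, 7.38 and 5.73 on hemophagocytes 2, 3, 5 and 6, against 5.67 to 5.89 on resting arrays. In each of the 11 marker lists 0 members passed limma's adjusted threshold. Probe sets differ in how brightly they report a transcript, so a value under this percentile is not proof of absence.

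Ccl5 is also made by T and NK cells and carried by platelets, so their markers bear on it. The 9 measured T cell markers averaged 6.39 to 6.51 on hemophagocyte arrays and 6.48 to 6.49 on resting arrays, and the 9 NK cell markers 6.07 to 6.33 on hemophagocyte arrays and 6.34 to 6.44 on resting arrays. No marker of either list lay above the background percentile on any array. Most genes lie under that mark, as did Ccl6 on resting macrophage 4, where it was brighter than 96.3% of all genes. This count therefore does not show whether T or NK cells were present. On hemophagocytes 3 and 5, with high Ccl5, the T cell list averaged 6.39 and 6.45 and the NK cell list 6.07 and 6.32. The 7 measured platelet markers averaged 6.61, 7.09, 6.96 and 6.42 on hemophagocytes 2, 3, 5 and 6, against 6.60 to 6.78 on resting arrays. The platelet chemokine Pf4 stood at 6.10, 10.35, 9.11 and 5.49 on hemophagocytes 2, 3, 5 and 6, against 6.61 to 7.41 on resting arrays. Ppbp, also a platelet chemokine, was at 4.80 to 5.18 in hemophagocytes and 5.14 to 5.29 in resting macrophages. The rest of the platelet list did not rise as Pf4 did, so the list averages on hemophagocytes 3 and 5 rest on Pf4. Of the 7 platelet markers 4 had a change above 0, beside 36.1% of all genes, and the median change was 0.005. The 11 neutrophil markers averaged 6.15, 6.58, 6.27 and 6.30 on hemophagocytes 2, 3, 5 and 6, against 6.15 to 6.21 on resting arrays, and S100a9 among them reached 9.12 on hemophagocyte 3. S100a8, its partner protein, stood at 4.60, 8.02, 6.41 and 5.12 on hemophagocytes 2, 3, 5 and 6, against 4.86 to 5.02 on resting arrays. The rest of that list did not follow these genes. Of the 11 neutrophil markers 4 had a change above 0, beside 36.1% of all genes. Their median change was -0.05, beside -0.04 for all genes. Ly6g, for example, stood at 5.25 on hemophagocyte 3, against 5.63 to 5.82 on resting arrays. Cd68, Pf4 and S100a8 were high on both arrays with high Ccl5, and S100a9 on hemophagocyte 3, and their part in the chemokine values was not tested. In such pooled captures, fewer cells of a type and less RNA per cell cannot be told apart.

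Ccl5, which attracts T cells and monocytes, had the largest difference of the members with all arrays. Its values were 7.36, 10.42, 10.74 and 8.18 on hemophagocytes 2, 3, 5 and 6, against 7.60, 7.38, 7.51 and 7.47 on resting macrophages 3, 4, 5 and 6 (log2 values, as are all levels below). On 3 of the 4 hemophagocyte arrays Ccl5 lay above every resting array, and hemophagocyte 2 lay just below all of them, so the groups overlapped. The mean was 9.18 ± 1.66 in hemophagocytes and 7.49 ± 0.09 in resting macrophages (SD, n = 4 each). The log2 change, hemophagocyte minus resting, was 1.69 (SE 0.63, 95% interval 0.31 to 3.07). All 4 resting values of Ccl5 lay under the background percentile of their arrays, though brighter than 93.0% to 95.8% of all genes there. The size of the change may therefore depend on background, and no fold is given. In limma, fitted over all genes with Benjamini-Hochberg adjustment, the unadjusted p was 0.021 and the adjusted p = 0.75. An exact two-sided permutation of the 8 arrays gave p = 0.143, where 0.0286 is the smallest this design allows. The spread between hemophagocyte arrays was 18.5 times that between resting arrays. Without hemophagocytes 3 and 5 the change was 0.28 (SE 0.19), and without hemophagocyte 2 it was 2.29 (limma adjusted p = 0.57). With the array mean of the receptor genes as a covariate, Ccl5 had a change of 1.36 (SE 0.785, limma adjusted p = 0.97). That of Ccl12 was then 1.41 (SE 0.654, limma adjusted p = 0.97).

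Ccl3, which draws macrophages and T cells, was high on a different pair of arrays. It stood at 7.40, 7.44, 8.17 and 7.99 on hemophagocytes 2, 3, 5 and 6, against 7.39, 7.55, 7.21 and 7.44 on resting macrophages 3, 4, 5 and 6. Hemophagocytes 5 and 6 lay above the resting arrays, and hemophagocytes 2 and 3 among them. The change was 0.35 (SE 0.17, limma adjusted p = 0.75), and it was 0.21 without hemophagocyte 5, 0.30 (SE 0.16) without hemophagocytes 3 and 5, and 0.59 with the receptor gene covariate. Ccl4, the neighbour of Ccl3, stood at 6.71, 6.62, 6.67 and 6.65 on hemophagocytes 2, 3, 5 and 6, against 6.81, 6.63, 6.72 and 6.81 on resting macrophages 3, 4, 5 and 6. The groups overlapped and every array lay below the background percentile. The change of Ccl4 was -0.08 (95% interval -0.24 to 0.07, limma adjusted p = 0.80).

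**Figure D2:**
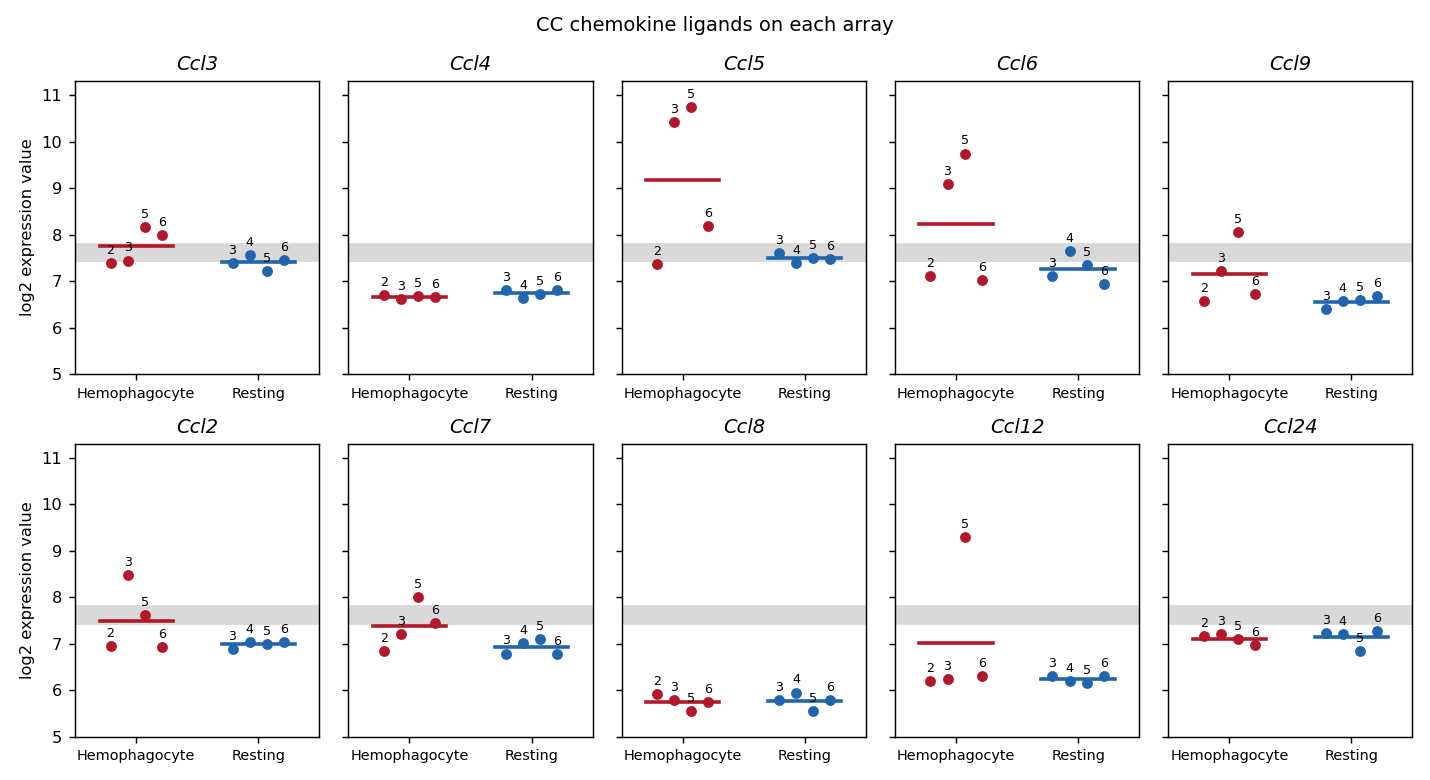
The log2 expression value of each CC chemokine ligand (vertical axis, 1 panel a gene) on the 4 hemophagocyte arrays (red) and the 4 resting arrays (blue), with array numbers beside the points and bars at the group means. The grey band spans the background percentile of the 8 arrays, 7.42 to 7.81; Ccl5 reached 10.42 and 10.74 on hemophagocytes 3 and 5, and the highest resting point is Ccl6 on resting macrophage 4.

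The 2 rodent CCR1 ligands, Ccl6 and Ccl9, are made by myeloid cells and lie next to each other on chromosome 11. Ccl6 stood at 7.10, 9.09, 9.74 and 7.02 on hemophagocytes 2, 3, 5 and 6, against 7.10, 7.65, 7.35 and 6.93 on resting macrophages 3, 4, 5 and 6. The high arrays were those of Ccl5, and hemophagocytes 2 and 6 lay within the resting range. The change of Ccl6 was 0.98 (SE 0.54, limma adjusted p = 0.75) with all arrays and -0.20 (SE 0.17) without hemophagocytes 3 and 5. Ccl9 stood at 6.58, 7.21, 8.05 and 6.72 on hemophagocytes 2, 3, 5 and 6, against 6.40, 6.57, 6.59 and 6.68 on resting macrophages 3, 4, 5 and 6. Hemophagocytes 3, 5 and 6 lay above all resting arrays and hemophagocyte 2 among them. The change of Ccl9 was 0.58 (SE 0.26, limma adjusted p = 0.75) with all arrays, 0.28 without hemophagocyte 5 and 0.09 without hemophagocytes 3 and 5.

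Promoter windows were available from RefSeq (build GRCm38.p6) for 5 members, Ccl3, Ccl6, Ccl8, Ccl9 and Ccl12. Ccl2, Ccl4, Ccl5, Ccl7 and Ccl24 had no entry. The 120 bases before the gene start of Ccl6 and Ccl9 are shown because both genes had their 2 highest values on hemophagocytes 3 and 5. On hemophagocyte 3, however, Ccl9 was only 0.65 above its resting mean and lay under the background percentile. Capitals mark their longest shared run, of 13 bases, which begins 55 bases before the start of Ccl6 and 14 bases before the start of Ccl9. The Ccl6 stretch is chr11:83593088-83593207 and the Ccl9 stretch chr11:83578637-83578756, both on the minus strand and written 5′ to 3′.
Ccl6: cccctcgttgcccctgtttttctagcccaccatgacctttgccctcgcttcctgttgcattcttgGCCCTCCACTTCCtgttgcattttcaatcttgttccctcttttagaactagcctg
Ccl9: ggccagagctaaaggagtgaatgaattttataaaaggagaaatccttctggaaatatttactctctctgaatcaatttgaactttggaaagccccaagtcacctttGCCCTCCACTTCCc
On either strand, the shared run occurred in the 250 bases before the start in 5 of 32851 RefSeq windows (0.0152%), these genes included. The run was picked as the longest match of these stretches, so a low share elsewhere was largely set by its length. Whether it bears on the values of Ccl6 and Ccl9 was not tested. Among the 10 pairs of members with a window, the other shared runs in the 120 bases were 6 to 9 bases long.

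Ccl2, Ccl7 and Ccl12, the CCR2 ligands that draw monocytes, all lay above their resting values on hemophagocyte 5 but differed on other arrays. Ccl7 and Ccl12 were highest there (Pearson r = 0.84 over the 8 arrays), and Ccl2 on hemophagocyte 3. Ccl2 stood at 6.96, 8.48, 7.62 and 6.93 on hemophagocytes 2, 3, 5 and 6, against 6.88, 7.04, 6.99 and 7.03 on resting macrophages 3, 4, 5 and 6. It was highest on hemophagocyte 3, next on hemophagocyte 5, and within the resting range on the other 2. The change of Ccl2 was 0.51 (SE 0.28, limma adjusted p = 0.75), and -0.04 without hemophagocytes 3 and 5. Without hemophagocyte 3 alone it was 0.19, and 0.10 with the mean of the receptor genes as a covariate.

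Ccl7, which also binds CCR1 and CCR3, stood at 6.85, 7.21, 8.01 and 7.44 on hemophagocytes 2, 3, 5 and 6, against 6.79, 7.02, 7.11 and 6.79 on resting macrophages 3, 4, 5 and 6. Hemophagocytes 3, 5 and 6 lay above all resting arrays, and hemophagocyte 2 among them. The change was 0.45 (SE 0.20, limma adjusted p = 0.75), and 0.24 without hemophagocyte 5. Ccl12, a mouse chemokine close to Ccl2, stood at 6.20, 6.25, 9.29 and 6.31 on hemophagocytes 2, 3, 5 and 6, against 6.30, 6.20, 6.15 and 6.30 on resting macrophages 3, 4, 5 and 6. A single array, hemophagocyte 5, carried its difference. The change of Ccl12 was 0.77 (SE 0.57, limma adjusted p = 0.78) with all arrays and 0.01 without hemophagocyte 5.

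Ccl8, which in the mouse draws T cells through CCR8, and Ccl24, the eosinophil attractant, had small differences. Ccl8 stood at 5.93, 5.78, 5.55 and 5.74 on hemophagocytes 2, 3, 5 and 6, against 5.79, 5.95, 5.56 and 5.79 on resting macrophages 3, 4, 5 and 6, with a change of -0.02 (95% interval -0.25 to 0.21, limma adjusted p = 0.97). Ccl24 stood at 7.17, 7.21, 7.11 and 6.97 on hemophagocytes 2, 3, 5 and 6, against 7.24, 7.21, 6.85 and 7.27 on resting macrophages 3, 4, 5 and 6, with a change of -0.03 (95% interval -0.26 to 0.20, limma adjusted p = 0.95). In both genes the groups overlapped and every array lay below the background percentile. The sign of the difference turned under quantile, median and cyclic loess normalization for Ccl8 and under cyclic loess for Ccl24.

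Ccl12 and Ccl8 are neighbours on chromosome 11 and differed most on hemophagocyte 5, where Ccl12 was 3.05 above its resting mean and Ccl8 at -0.23 from its own. The 120 bases before their starts are shown for that contrast, on the plus strand, with capitals on the match to TATAAA. The Ccl12 stretch is chr11:82101725-82101844 and the Ccl8 stretch chr11:82115065-82115184.
Ccl12: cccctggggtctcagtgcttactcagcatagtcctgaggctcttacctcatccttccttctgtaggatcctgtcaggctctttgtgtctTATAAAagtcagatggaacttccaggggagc
Ccl8: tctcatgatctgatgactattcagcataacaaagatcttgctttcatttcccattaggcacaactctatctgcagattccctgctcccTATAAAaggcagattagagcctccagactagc
The match begins 31 bases before the start of Ccl12 and 32 before that of Ccl8. In the 250 bases before the start, on both strands, TATAAA occurred in 12.4% of all RefSeq windows and in 3 of the 5 members, Ccl8, Ccl9 and Ccl12. The AP-1 motif TGANTCA occurred in 6.75% of windows and in 1 member, Ccl9, where it begins 53 bases before the start. These matches describe letters only, and these motifs did not overlap in Ccl9.

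Taken by count, 0 of the 10 members passed limma's adjusted threshold of 0.05, where 2 of 19938 genes (0.01%) did. At an unadjusted p under 0.05, 3 members had higher values in hemophagocytes (Ccl5, Ccl7 and Ccl9), beside 1.53% of all genes, and 0 had lower values, beside 5.05%. In the exact permutation test, 0 members had an unadjusted p under 0.05. In no member were the groups free of overlap, beside 0.802% of genes whose hemophagocyte values all lay above the resting ones and 2.9% whose values all lay below. Of the members, 7 had a change above 0, beside 36.1% of all genes, and 5 had a change of 0.5 or more, beside 0.888%. The median change of the members was 0.48, and that of all genes -0.04. Without hemophagocyte 5 the members' median was 0.23, and without hemophagocytes 3 and 5 it was 0.04. In that setting Ccl7 had a change of 0.22, Ccl12 one of 0.02, Ccl8 one of 0.06, Ccl4 one of -0.06 and Ccl24 one of -0.08, and no member passed. In 7 of the 10 members the SD was larger between hemophagocyte arrays than between resting arrays, as it was in 60.3% of all genes.

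On resting arrays 0 of the 10 members lay above the background percentile on any array, so by this gauge no resting level was clear of background. The gauge is strict, and the share of all genes above it was not counted. On resting macrophage 4, Ccl6 lay under it while brighter than 96.3% of all genes. The count of 0 is therefore not particular to the members. On hemophagocyte arrays, 7 members lay above it on at least 1 array, and Ccl4, Ccl8 and Ccl24 on 0. Here too the share of all genes was not counted, so the count of 7 is not a result particular to the members.

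**Figure D3:**
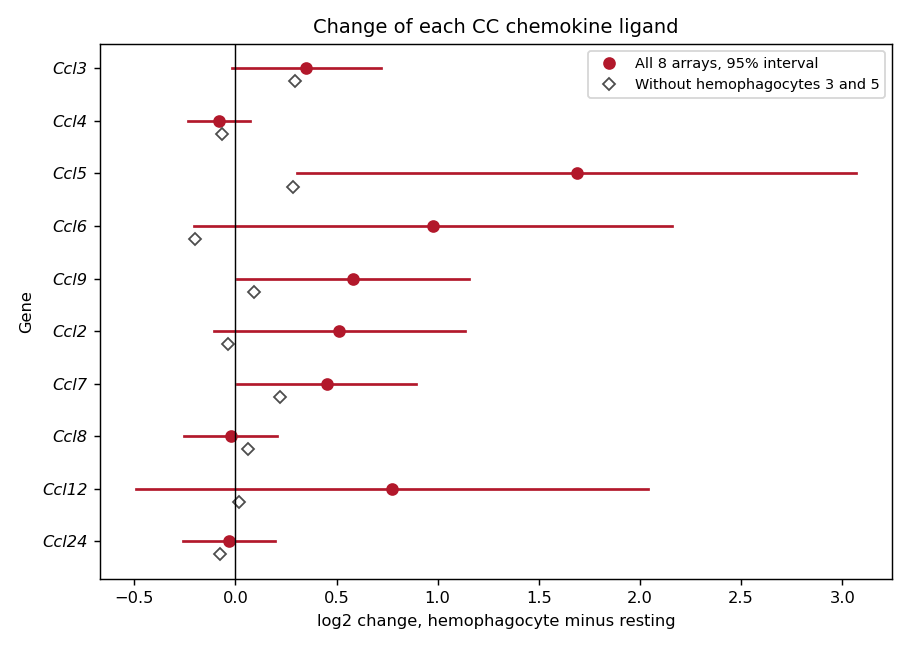
The log2 change, hemophagocyte minus resting (horizontal axis), of each CC chemokine ligand in limma with its 95% interval (red), and the change without hemophagocytes 3 and 5 (open diamonds). Ccl5 has the largest change, 1.69 with all arrays and 0.28 without those 2, and the intervals of Ccl5, Ccl7 and Ccl9 lie above 0 before adjustment over all genes.

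The other CC ligands and the receptors gave no call. Of 9 measured ligands outside the 10, 0 passed in either direction. Of these ligands 1 had a change above 0, beside 36.1% of all genes, and their median was -0.07. Ccl11, an eosinophil attractant that lies among the CCR2 ligands on chromosome 11, had the smallest p with a change of -0.15 (SE 0.07, limma adjusted p = 0.75). Ccl20 stood at -0.14, Ccl26 at -0.11 and Ccl17 at 0.10. Ccl21a and Ccl27a were not measured by a probe set of their own.

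Of 9 measured CC receptors 0 passed, 2 had a change above 0, beside 36.1% of all genes, and the median change was -0.03. Ccr2, the monocyte receptor for Ccl2, Ccl7 and Ccl12, stood at 5.58, 5.38, 5.60 and 5.61 on hemophagocytes 2, 3, 5 and 6, against 5.70, 5.82, 5.61 and 5.81 on resting macrophages 3, 4, 5 and 6. All hemophagocyte values lay below all resting values, though the nearest, hemophagocyte 6 and resting macrophage 5, were both at 5.61. The change of Ccr2 was -0.20 (SE 0.08, limma adjusted p = 0.75). Ccr8, the receptor for mouse Ccl8, had a change of -0.16, Ccr6 one of 0.10 and Ccr9 one of 0.09. Of the 5 atypical receptors and relatives, which bind chemokines without the usual G protein signal, 0 passed and the median change was -0.10. Ackr4 had a change of -0.17, Ccrl2 one of -0.14, Ackr2 one of -0.10 and Ackr3 one of 0.06.

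Genes that lie between Toll-like receptor 9 and chemokine transcription gave no call either. Of 24 measured members of this list 0 passed, 12 had a change above 0, beside 36.1% of all genes, and the median change was 0.0009. At an unadjusted limma p under 0.05, 3 were higher in hemophagocytes (Atf3, Irf7 and Traf6), beside 1.53% of all genes, and 0 lower, beside 5.05%. Irak4, Traf3, Chuk and Nfkb1 were not measured by a probe set of their own. Irf7, an interferon regulatory factor downstream of Toll-like receptor 9, stood at 6.40, 6.84, 7.50 and 6.60 on hemophagocytes 2, 3, 5 and 6, against 6.50, 6.26, 6.32 and 6.49 on resting macrophages 3, 4, 5 and 6. Its highest value was on hemophagocyte 5 and the groups overlapped (change 0.44, SE 0.19, limma adjusted p = 0.75). Atf3, a stress-induced transcription factor, had a change of 0.24, the ubiquitin ligase Traf6 one of 0.16 and the NF-kB inhibitor Nfkbia one of 0.13. All hemophagocyte values of Traf6 lay above all its resting values. The nearest were 6.19 on hemophagocyte 5 and 6.18 on resting macrophage 4.

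Of 10 genes that cut, bind or store chemokines or decay their mRNA, 0 passed and the median change was -0.04. Srgn encodes serglycin, the granule proteoglycan to which chemokines bind. Srgn stood at 7.02, 8.74, 10.72 and 7.60 on hemophagocytes 2, 3, 5 and 6, against 6.36, 6.61, 6.77 and 6.45 on resting macrophages 3, 4, 5 and 6. All hemophagocyte values lay above all resting values, and the change was 1.97 (SE 0.62, limma adjusted p = 0.75). Ext1, an enzyme of heparan sulfate synthesis, had a change of -0.26, the matrix protease Mmp2 one of -0.12 and the syndecan Sdc1 one of -0.13.

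**Figure D4:**
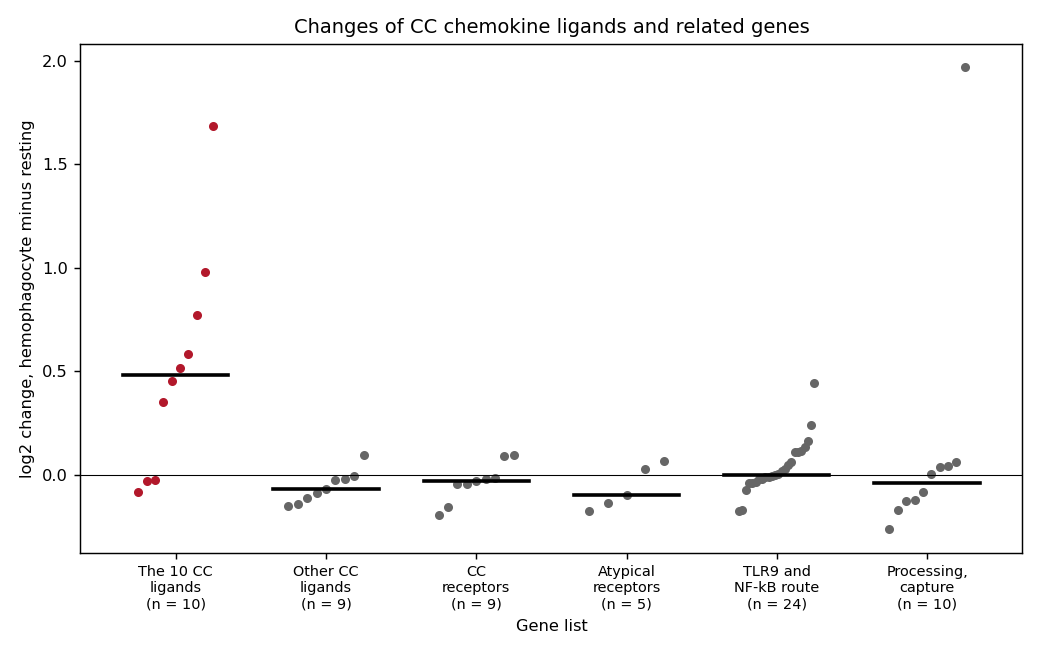
The log2 change, hemophagocyte minus resting (vertical axis), of the 10 CC chemokine ligands (red) and of related gene lists (grey), 1 point a gene, ordered by size within each list, with bars at the medians. The 10 ligands have a median of 0.48 and the other lists medians of -0.10 to 0.0009, with Srgn at 1.97 as the top point of the processing list.

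The genes whose values followed Ccl5 most closely over the 8 arrays were ranked among 562 genes with a range of at least 1 log2 unit. The ranking describes these arrays only and rests on hemophagocytes 3 and 5. Tmsb10, an actin-binding thymosin, came first (Pearson r = 0.98), with 5.97, 9.43, 10.04 and 7.65 on hemophagocytes 2, 3, 5 and 6, against 5.91 to 6.24 on resting arrays. Cd68, given above, came next, followed by the tubulin Tubb2a, the membrane protein Itm2b and the ribosomal protein Rps21 (lowest r 0.975, for Rps21). Rps21 stood at 5.90, 10.51, 10.16 and 7.25 on hemophagocytes 2, 3, 5 and 6, against 5.96 to 6.77 on resting arrays. These genes were high on hemophagocytes 3 and 5 and, like Ccl5, lower on hemophagocyte 2 than on any other hemophagocyte array.

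**Figure D5:**
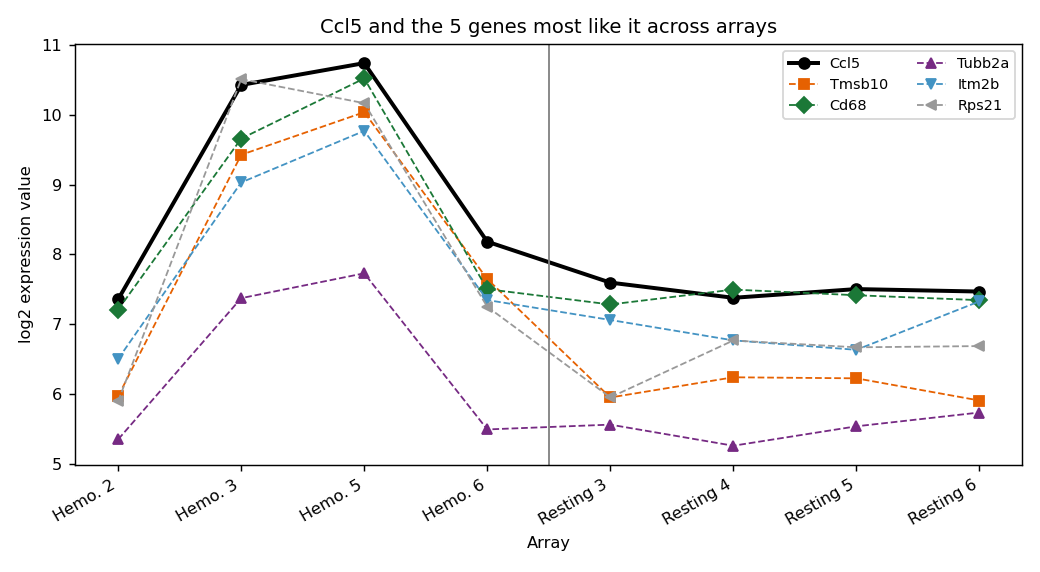
The log2 expression value (vertical axis) of Ccl5 (black) and of the 5 genes most like it on each array (horizontal axis), hemophagocytes left of the grey line and resting macrophages right of it; lines join the values of a gene only to guide the eye. All 6 genes peak on hemophagocytes 3 and 5, where Ccl5 stood at 10.42 and 10.74.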

How the data were processed

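Values were read from the table the authors deposited, 1 per probe set and array, on what their range shows to be a log2 scale. Per the submitters' processing notes the tool was Affymetrix Expression Console 1.1. Background correction, probe summary and normalization were not given in the sources used here. Array medians were 6.10 to 6.17. The number of arrays limits the precision. Of 35556 probe sets, 21789 had 1 gene symbol, and the brightest by mean over the 8 arrays stood for each of 19938 genes. Entrez identifiers of 21698 matched RefSeq, used for names and gene order. Groups and numbers came from sample titles; whether arrays share mice is not given, so p-values cover only the spread among these arrays, which may be technical. The test over all genes used limma 3.58.1 (R 4.3.3, lmFit, eBayes, two-sided, Benjamini-Hochberg over all genes, threshold 0.05), tested on simulated data. Members and gene lists were chosen with earlier results of these data known. All members are named, with up to 4 genes of smallest p from each related list, the 5 genes most like Ccl5, and markers that moved with the members, picked after their values were seen. Alternatives covered scaling, dim genes, the prior, array weights, probe sets, single arrays, the replicate block, a background covariate, hemophagocytes 3 and 5, and permutation.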

Additional observations from a re-analysis of the deposited data

Results flagged for a closer look

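In groups of 4 arrays, 2 members had an array far from the rest of its group by Dixon's test, in 20 groups tested, and chance flags about 1 group in 20. Ccl12 stood at 9.29 on hemophagocyte 5, with the other hemophagocytes at 6.20 to 6.31. Ccl24 stood at 6.85 on resting macrophage 5, with the other resting arrays at 7.21 to 7.27.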

How the results depend on the processing

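In 19 alternative settings no member passed the threshold, with limma adjusted p from 0.35 (Ccl7, replicate block) upward. The number of all genes past it was 2, and 1 with median centring, cyclic loess, the intensity trend with a robust prior or the receptor covariate, 7 with the replicate number as a block and 1 to 11 when single arrays were left out (11 without hemophagocyte 2). Exact permutation with adjustment called 0 genes, with 739 at an unadjusted p under 0.05. With the replicate block the change was 2.26 for Ccl5 (adjusted p = 0.51) and 0.66 for Ccl7. Hemophagocyte 2 and resting macrophage 4 had no array of the same number in the other group. The block therefore took both out of the contrast. Without hemophagocyte 2 and with no block, the change was 2.29 for Ccl5 and 0.63 for Ccl7. All 7 genes past the threshold with the block were among the 11 without hemophagocyte 2. An effect of pairing thus cannot be told from the loss of hemophagocyte 2. Same-numbered arrays deviated together with correlations of 0.17, 0.066 and 0.12 for numbers 3, 5 and 6. No label says that a number marks a shared mouse or batch. Hemophagocytes 3 and 6 correlated best with the resting array of their own number, and hemophagocyte 5 did not. Of 189 member values under alternatives, 177 kept their sign and 12 turned. Some of those kept could not turn. The intensity trend with a robust prior, permutation and leaving out dim genes do not alter a change. The mean of all probe sets does not either, as each member had 1 probe set. Without hemophagocytes 3 and 5 together, Ccl2 was -0.037, Ccl6 -0.20 and Ccl8 0.062. Ccl8 was 0.0070 with quantile normalization, 0.0039 with median centring and 0.016 with cyclic loess, and Ccl24 was 0.011 with cyclic loess. When single arrays were left out, Ccl8 ran from -0.095 to 0.045 and Ccl24 from -0.13 to 0.018, Ccl5 from 1.17 to 2.29, Ccl6 from 0.48 to 1.38 and Ccl12 from 0.01 to 1.05. The cause of these turns was not tested. With dim genes left out, Ccl8 was not fitted. All 10 members lay under the background percentile on the resting arrays, and Ccl4, Ccl8 and Ccl24 on all arrays. As that gauge is strict, background may limit these values, but how far was not tested.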
